A study of Mus musculus with 6 samples.

Results

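The replication-dependent histone genes were taken as the rows of the deposited mouse expression table whose symbol begins with Hist1h, Hist2h, Hist3h or Hist4h and whose value was 10 or more in at least 2 of the 6 libraries. This gave 32 genes of the 58 histone rows and of 19713 rows in all, with 5 genes of the linker histone H1, 5 of H2a, 10 of H2b, 5 of H3 and 7 of H4. Of these, 28 lie in the Hist1 cluster, 2 in Hist2, 2 in Hist3 and 0 in Hist4. The symbols match the label of the group, and each of the 5 histone classes is present.

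Replication-dependent histones package newly made DNA. Core histones H2a, H2b, H3 and H4 form the nucleosome and H1 binds the linker DNA between nucleosomes. Their genes are switched on in S phase through the coactivator NPAT, and their messages end in a stem-loop that binds the protein SLBP in place of a poly(A) tail. Embryonic stem cells divide fast and spend much of their cycle in S phase. A TruSeq RNA kit in its usual form selects polyadenylated RNA, which leaves out messages without a tail. Some of these genes can also give polyadenylated transcripts.

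The stem-loop that marks these messages is shown here because it is what sets them apart from other messages in such a library. In the GENCODE M21 transcripts of the mouse, 22 of the 32 genes carried a match to the 16-base stem-loop, in 5 versions. Transcripts were searched along their whole length. Annotation ran on past the match by 11 bases (Hist1h2ab) to 4884 bases (Hist1h1d), so not every annotated transcript with a match ends near it. Capitals mark the arms of the stem and lower case the loop.
Stem-loop of 13 genes (3 H1, 4 H2a, 5 H2b, 1 H3): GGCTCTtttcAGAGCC
Stem-loop of 4 genes (2 H2b, 2 H3): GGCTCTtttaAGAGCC
Stem-loop of 3 genes (Hist1h4c, Hist1h4d and Hist1h4h): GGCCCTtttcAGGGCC
Stem-loop of Hist1h4i: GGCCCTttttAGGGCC
Stem-loop of Hist1h4b: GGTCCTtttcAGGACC
The 5 H4 genes with a stem-loop carried 3 versions that no other class had. Annotation ended at the coding sequence for 4 of the genes without one (Hist1h2ak, Hist1h3h, Hist1h4k and Hist2h2bb), and the other 6 ran past it without a match to this pattern. The hexamer AATAAA, the signal for adding a poly(A) tail, stood in the last 50 bases of 7 genes (Hist1h1c, Hist1h2ae, Hist1h2be, Hist1h4a, Hist2h2be, Hist3h2a and Hist3h2ba).

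The libraries came from mouse embryonic stem cells derived from C57Bl/6 blastocysts. Wild-type cells (WT), cells with the homozygous missense allele Thap1 C54Y/C54Y (C54Y) and cells labelled THAP1 -/- with the allele Thap1 ΔExon2 (KO) gave 2 libraries each, replicate 1 and replicate 2. THAP1 is a zinc finger transcription factor. Cells of every genotype grew on gelatin and irradiated mouse embryonic fibroblasts in 15% fetal calf serum with LIF at 1000 units per ml, so feeder RNA can be part of any library. The labels do not say whether a line is 1 clone, nor whether libraries of a genotype came from separate cultures, so p-values measure only the spread between these samples.

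Each value is a normalized count, the reads of a gene divided by a size factor of the library, and depth was 31774656 to 46772996 reads per library. Thap1 itself had normalized counts of 433 (WT), 2253 (C54Y) and 1975 (KO) in replicate 1, and of 701, 2533 and 1687 in replicate 2. A count over the whole gene checks neither the missense change nor the loss of exon 2. Library composition followed the replicate number too. The ribosomal precursor Rn45s took at most 0.600% of the reads of any replicate 1 library and at least 1.49% in replicate 2, and 32.8% of the 15287 genes tested were called lower and 32% higher in replicate 2.

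The histone genes were sparsely covered. Their summed reads were 915 (WT), 893 (C54Y) and 1175 (KO) in replicate 1, and 1352, 1361 and 1477 in replicate 2. For comparison, summed normalized counts of the 32 genes ranged from 607 to 1880, while those of 12 variant histone genes, most of which are not tied to S phase and have ordinary poly(A) tails, ranged from 81499 to 141982. Per kilobase of annotated exon and scaled to a common library total, Hist1h4i was the highest gene of the group (median over the 6 libraries 7.94), followed by Hist1h2bc (4.72), Hist1h2bj (2.73) and Hist3h2ba (2.19). The ranges of neighbours in this order overlapped, from 3.88 to 12.01 for Hist1h4i, 2.35 to 6.29 for Hist1h2bc, 0.931 to 4.21 for Hist1h2bj and 1.36 to 5.54 for Hist3h2ba. At the other end stood Hist1h2be (0.0737), where the annotated exons used for the division span 4446 bases and the longest transcript 2506. By mean normalized count it was not the lowest (13.0, against 6.8 for Hist1h2ak).

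Near the entry threshold values were a few reads. Hist1h4a entered with 2.2, 4.1 and 6.9 normalized counts in WT, C54Y and KO of replicate 1 and 9.0, 10.4 and 12.7 in replicate 2. Hist1h2ak (3.0, 2.0 and 5.2, then 11.6, 5.2 and 14.0) and Hist1h4c (3.7, 3.4 and 4.3, then 19.3, 6.5 and 12.7) also lay just inside. Just outside were Hist1h4f (2.2, 6.1 and 7.8, then 2.6, 14.3 and 8.9), Hist1h2ai (3.0, 3.4 and 6.9, then 9.0, 5.2 and 12.7) and Hist1h2bl (2.2, 2.7 and 4.3, then 7.7, 9.1 and 12.7). Only 10 genes reached 10 in every library, and 10 others entered through replicate 2 alone (Hist1h1e, Hist1h2ak, Hist1h2bb, Hist1h2bg, Hist2h2bb, Hist1h3e, Hist1h3h, Hist1h4a, Hist1h4c and Hist1h4h). Those 10 had to differ between the replicate numbers, and their differences are given below as a description. Only 16 genes met the entry rule through replicate 1 values. Hist1h2ab, Hist1h2ag, Hist1h2be, Hist1h3a, Hist1h4b and Hist1h4k reached 10 in 1 replicate 1 library only, so they needed replicate 2 as well. The class counts below without genes that entered through replicate 2 alone still include them.

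**Figure D1:**
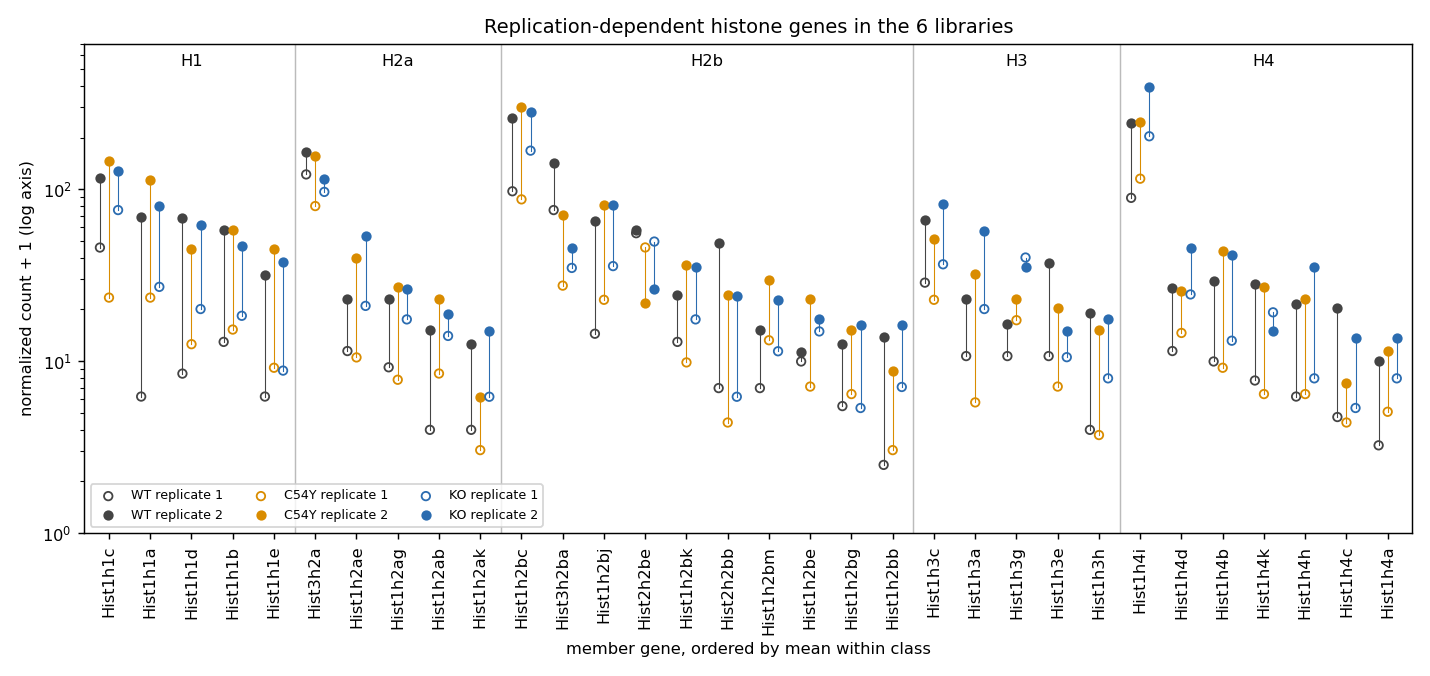
Normalized counts plus 1 of the 32 histone genes in each of the 6 libraries (open points replicate 1, filled points replicate 2, coloured by genotype), grouped by histone class, on a log axis. Replicate 2 libraries lie above replicate 1 libraries of the same genotype in 29 genes (39.6% of all tested genes), and Hist1h4i and Hist1h2bc reach the highest counts. The 29 include the 10 genes that entered through replicate 2 alone, whose gap the entry rule partly fixed.

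Most histone genes differed between the replicate numbers, and the calls went one way. In the fit with genotype and replicate number, 26 of the 32 genes were higher in replicate 2 and 0 were lower (limma, Benjamini-Hochberg adjusted p under 0.05), where 64.9% of all tested genes were called in either direction and 32% higher. For the 0 lower calls, the background was 32.8%, and edgeR and DESeq2 also gave 0 lower calls. By limma 28 histone genes had an unadjusted p under 0.05 in either direction, as did 10406 of all 15287 genes tested. The median log2 change was 1.21 for the histone genes and 0.01 for all genes tested. Genes that entered through replicate 2 alone could hardly be called lower. Of the 22 genes that had reached 10 in at least 1 replicate 1 library, 17 were called higher and 0 lower, with a median of 1.16. Of the 16 that met the entry rule through replicate 1 values, 13 were called higher, with a median of 1.18. Of the 10 that reached 10 in every library, 8 were called higher, with a median of 1.16. In 25 genes every replicate 2 value lay above every replicate 1 value, which held for 29.7% of all genes. The 25 include every gene that entered through replicate 2 alone except Hist1h2ak, and for those genes the entry rule partly fixed the gap.

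The size factors bear on these medians. On RPM, reads scaled to a common library total, the median of all genes moved to -0.36 and that of the histone genes to 0.90. All 58 histone rows, with no entry threshold, were counted as well. Of these, 53 were higher in replicate 2 in WT, 52 in C54Y and 50 in KO by normalized count, and 49, 50 and 46 by RPM. Of all genes tested, 50.6% had a fitted replicate change above 0 on normalized counts. The share of all rows within each genotype was not counted on either scale.

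H1 genes had the largest class median. Hist1h1a, a linker histone gene, had 5.2 (WT), 22.4 (C54Y) and 26.1 (KO) normalized counts in replicate 1 and 68.2, 111.7 and 78.9 in replicate 2. All 3 replicate 2 libraries lay above all 3 of replicate 1, and WT of replicate 1 was the lowest. Its log2 change of 2.34 ± 0.36 (SE; adjusted p = 0.000444, limma) was the highest of the 32 genes. Hist1h1c, another linker histone gene and the class member with the most counts, went from 44.8, 22.4 and 74.7 to 115.8, 144.2 and 126.0 (1.55 ± 0.35, adjusted p = 0.00366), without overlap. All 5 H1 genes were called higher, with a class median of 2.07 and a range from 1.55 to 2.34. Without Hist1h1e, which entered through replicate 2 alone, it was 4 of 4 with a median of 1.91.

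Among H2a genes, which encode a core histone that pairs with H2b, 4 of 5 were called higher and the median was 1.15 (3 of 4 and 1.15 without Hist1h2ak, which entered through replicate 2 alone). Hist1h2ae had 10.5, 9.5 and 20.0 normalized counts in replicate 1 and 21.9, 39.0 and 52.2 in replicate 2 (1.36 ± 0.33, adjusted p = 0.0061), a narrow but complete separation, and its call was lost without C54Y replicate 2 (adjusted p = 0.0589). Hist3h2a, which supplied 50.9% to 83.1% of the H2a reads, had 121.0, 78.9 and 95.6 in replicate 1 and 163.4, 155.9 and 113.3 in replicate 2. These groups overlapped, since KO of replicate 2 was below WT of replicate 1, and the change was not called (0.54 ± 0.23, adjusted p = 0.067), though it was without KO replicate 1 (0.0143) or KO replicate 2 (0.0192).

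H2b genes ranged most widely. Hist2h2bb had 6.0, 3.4 and 5.2 normalized counts in replicate 1 and 47.6, 23.4 and 22.9 in replicate 2 (2.22 ± 0.37), and is one of the genes that the entry threshold took in through replicate 2 alone. Hist1h2bc, the H2b gene with the most reads, went from 96.4, 86.4 and 166.8 to 257.4, 300.1 and 278.8 (1.30 ± 0.24, adjusted p = 0.00125), without overlap. Hist2h2be ran the other way, with 54.5, 44.9 and 48.6 in replicate 1 and 56.6, 20.8 and 25.5 in replicate 2 (-0.62 ± 0.31, adjusted p = 0.109). Its WT libraries were level, while both mutants were lower in replicate 2, and without either WT library the change was called lower. In all, 8 of the 10 H2b genes were called higher, with a median of 1.21, or 5 of 7 with a median of 1.02 without those that entered through replicate 2 alone, and Hist1h2be (0.65, adjusted p = 0.199) and Hist2h2be were not called.

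Of the H3 genes, 4 of 5 were called higher (median 1.19), or 2 of 3 (median 1.16) without Hist1h3e and Hist1h3h, which entered through replicate 2 alone. Hist1h3h had 3.0, 2.7 and 6.9 normalized counts in replicate 1 and 18.0, 14.3 and 16.5 in replicate 2 (1.61 ± 0.41), a gap that its entry partly fixes. Hist1h3c, the most counted H3 gene, had 27.6, 21.8 and 35.6, then 65.6, 50.7 and 81.5 (1.16 ± 0.26, adjusted p = 0.00386), and its replicates did not overlap. Hist1h3g was the exception, with 9.7, 16.3 and 39.1, then 15.4, 22.1 and 34.4 (0.26 ± 0.33, adjusted p = 0.506), and its KO libraries were the 2 highest.

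For H4, the core histone that pairs with H3, 5 of 7 genes were called higher (median 1.16), or 3 of 4 (median 1.13) without Hist1h4a, Hist1h4c and Hist1h4h, which entered through replicate 2 alone. Hist1h4h had 5.2, 5.4 and 6.9 normalized counts in replicate 1 and 20.6, 22.1 and 34.4 in replicate 2 (1.79 ± 0.36), a gap that its entry partly fixes. Hist1h4d had 10.5, 13.6 and 23.5, then 25.7, 24.7 and 44.5 (0.93 ± 0.32, adjusted p = 0.0269), where KO of replicate 1 came close to WT and C54Y of replicate 2. Its call was lost without either WT library, either C54Y library or KO of replicate 2 (adjusted p from 0.0574 to 0.114), and with DESeq2 (0.125). Hist1h4a (1.04, adjusted p = 0.0522) and Hist1h4k (1.10, adjusted p = 0.0737) were not called.

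**Figure D2:**
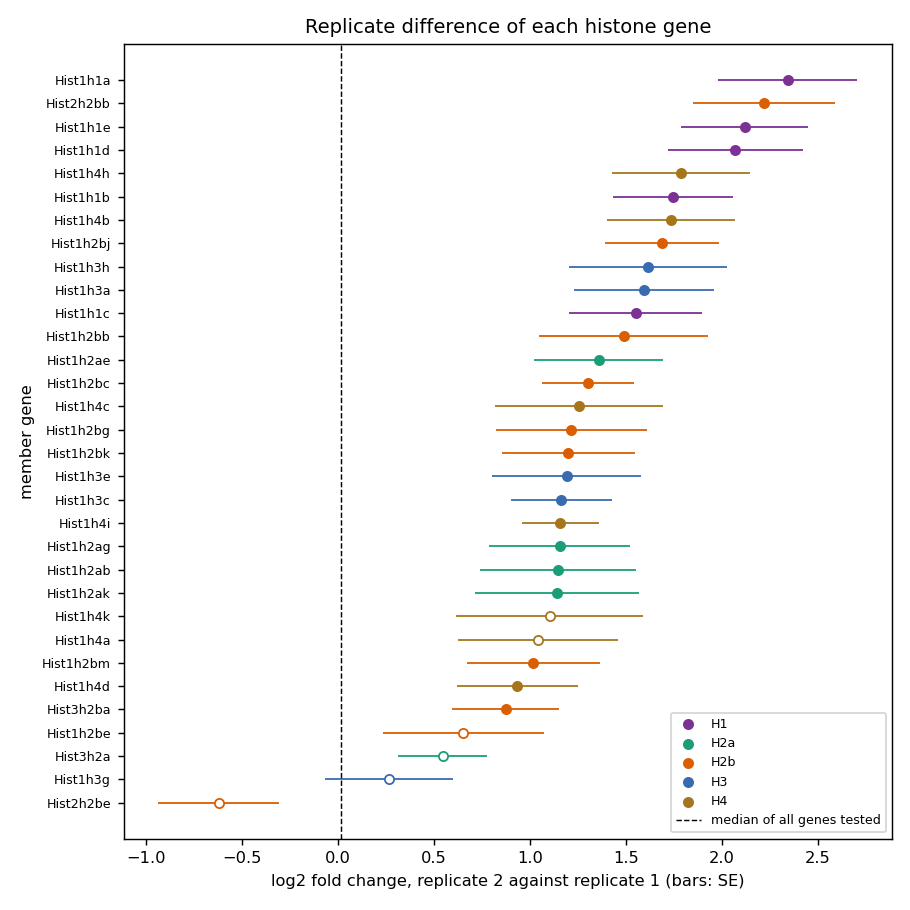
Log2 fold change between replicate 2 and replicate 1 for each of the 32 histone genes, with bars of 1 SE from limma, coloured by class; filled points passed an adjusted p of 0.05, among them 9 of the 10 genes that entered through replicate 2 alone, and the dashed line is the median of all genes tested. Hist1h1a (2.34) and Hist2h2bb (2.22) lie farthest right, and Hist2h2be (-0.62) alone lies left of 0.

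The count of calls varied with the tool: edgeR on the recovered reads called 25 genes and DESeq2 called 16, all higher in replicate 2. Of all 15287 genes tested, edgeR called 4361 higher and DESeq2 4640. Without C54Y of replicate 2 the limma count was 16, where 3839 of all genes were called higher. Without C54Y of replicate 1 it was 17, where 3972 of all genes were.

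Other gene groups and library properties differed between the replicate numbers as well, and their part in the histone difference was not tested. Among 13 tested of 14 fibroblast markers, which trace feeder cells, 9 were called higher in replicate 2 and 0 lower (background 32%), with a median of 1.60. The list's summed normalized count was 5391 to 8879 in replicate 1 and 27840 to 32361 in replicate 2, and at most 1 marker of the 14 was at 0 in a library. Vim, an intermediate filament gene of mesenchymal cells, went from 2555, 2553 and 2703 to 12883, 14673 and 16277. In bulk RNA a larger share of a cell type and more of its RNA per cell cannot be told apart. Embryonic stem cell markers were split, with 4 called higher and 3 lower of 10. Pou5f1, the core pluripotency factor, was higher in replicate 2 (1.31 ± 0.08, adjusted p = 2.29e-06).

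Transcript length and base composition also moved with the replicate number. These were looked at after the values had been seen. Genes were sorted by the length of their longest GENCODE M21 transcript (95.4% of tested genes matched) and divided into 5 equal bins. The bin of shortest transcripts had a median replicate change of 0.80 and that of the longest -0.86. Of 5 bins by GC content, the lowest stood at -1.504 and the highest at 0.57. Histone transcripts were short (median 616 bases, against 3261 for all tested genes) and rich in GC (median 55.8% against 50.2%). The 27 histone genes in the bin of shortest transcripts had a median of 1.21, and the 16 in the bin highest in GC a median of 1.16. Both values lay above the medians of their bins, but the 10 genes that entered through replicate 2 alone are among the 32.

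Other RNAs that lack a poly(A) tail were counted too. Of 112 such genes listed, mostly small nucleolar RNAs, 72 were tested, with 11 called higher and 19 lower in replicate 2 and a median of -0.13, where 32% and 32.8% of all genes were called. Rn45s went from 148462, 150190 and 211662 normalized counts to 851783, 614258 and 675239. Snord64, a small nucleolar RNA, had 73.2, 56.4 and 94.7 in replicate 1 and 3.9, 0 and 2.5 in replicate 2, and Snora81 had 91.9, 106.8 and 126.8, then 9.0, 2.6 and 6.4. Both were under 10 in every replicate 2 library, so they were tested through replicate 1 alone, which partly fixes their fall. The same held for others called lower, such as Snora28 and Snord2. Within the histone genes, 3 of the 7 with AATAAA near the annotated end were called higher in replicate 2 (median 0.87), against 23 of the 25 without it (median 1.25). Of the 10 genes that entered through replicate 2 alone, 9 are among the 25. Without them and Hist1h4a the counts were 3 of 6 (median 0.76) and 14 of 16 (median 1.18). That grouping was made after the values had been seen and was given no test. It also depends on how far the annotation runs. Among the 25, Hist1h2ak, Hist1h3h, Hist1h4k and Hist2h2bb are annotated only to the end of the coding sequence, so a later signal could not be found. Of the 7, Hist1h1c, Hist1h2ae, Hist1h2be, Hist3h2a and Hist3h2ba also carry the stem-loop.

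Other genes of histone biology were counted against the same background of 32% called higher and 32.8% lower. Variant histone genes leaned the same way, with 8 of 11 tested called higher in replicate 2, 0 lower and a median of 0.53. H2afx, the variant phosphorylated at DNA breaks, had 8254, 7799 and 9665 normalized counts in replicate 1 and 24230, 22193 and 25347 in replicate 2 (1.48 ± 0.10, adjusted p = 2.44e-06). Of 25 S phase genes, which make DNA precursors and copy DNA, 18 were called higher and 2 lower (median 0.64). Rpa2, a subunit that binds single-stranded DNA, went from 3111, 4282 and 5792 normalized counts to 9974, 12176 and 14398 (adjusted p = 5.56e-06), while Pola1, the primase-associated polymerase, was lower by 4.13 on the log2 scale. Genes for histone message processing were called in both directions, with 11 higher and 10 lower of 26 (median 0.17). Npat, the coactivator of histone genes, fell from 2206, 2155 and 2602 normalized counts to 223, 226 and 200 (-3.41 ± 0.15, adjusted p = 6.28e-07). Casp8ap2 (FLASH), which works in both the transcription and the 3′ end cleavage of histone messages, fell from 2166, 2462 and 3350 to 52.8, 122.1 and 85.3 (-4.96 ± 0.22). The 2 genes were thus lower in all 3 replicate 2 libraries, where histone genes were higher. Their transcripts are long and poor in GC (6062 bases and 40.3% for Npat, 6799 bases and 41.0% for Casp8ap2). Whether length or GC content has a part in their fall was not tested. Histone chaperones had 8 higher and 7 lower of 18 (median 0.10), with Chaf1b of the replication-coupled assembly factor at 1.20 ± 0.11 and the chromatin remodeller Atrx at -5.37 ± 0.20.

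**Figure D3:**
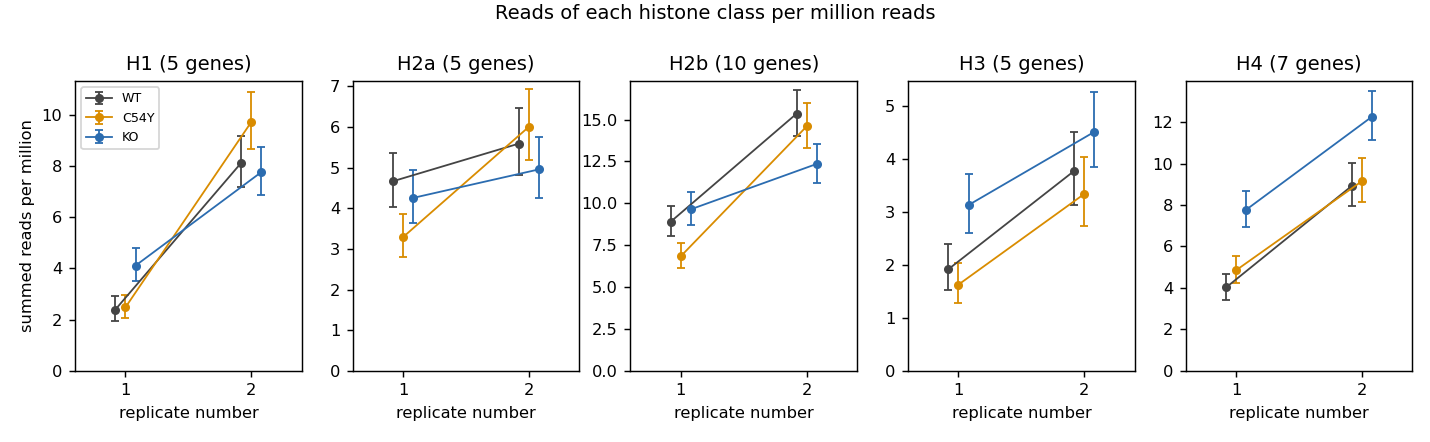
Summed reads of the histone genes of each class as RPM, reads scaled to a common library total, for the 6 libraries, with exact Poisson 95% intervals that cover counting error alone; each axis starts at 0. H1 sums lie between 2.39 and 4.11 in replicate 1 and between 7.77 and 9.72 in replicate 2, and H2a sums between 3.29 and 6.01 over the 6 libraries. The sums include the 10 genes that entered through replicate 2 alone.

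Class sums in RPM weight each gene by its reads. They include the 10 genes that entered through replicate 2 alone, and sums without them were not made. The entry rule thus fixed a part of the replicate differences of these sums. H1 sums were 2.39, 2.48 and 4.11 in replicate 1 and 8.13, 9.72 and 7.77 in replicate 2. Counting intervals of the 2 replicate numbers did not meet in any genotype for H1, H2b, H3 and H4, and met for H2a in WT and KO, but they leave out the spread between libraries. H4 sums went from 4.02, 4.85 and 7.78 to 8.93, 9.16 and 12.3, and there KO was the highest library of each replicate. Hist1h4i gave 64.9% to 74.0% of the H4 reads. Without it the sums were 1.20, 1.26 and 2.04 in replicate 1 and 3.12, 3.21 and 3.54 in replicate 2. H2a sums went from 4.67, 3.29 and 4.26 to 5.59, 6.01 and 4.96, with Hist3h2a giving most of their reads. Replicate 2 exceeded replicate 1 by 2.93-fold for H1, 1.88-fold for H4, 1.80-fold for H3, 1.68-fold for H2b and 1.37-fold for H2a, as geometric means over the 3 genotypes. The order of H2a, H2b and H3 changed without the most counted gene of each class, where the mean log2 ratios were 1.87 (H1), 1.18 (H4), 1.06 (H2a), 0.87 (H3) and 0.60 (H2b). With normalized counts instead, the mean log2 ratio was 1.26 over all 32 genes, against 0.88 in RPM.

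KO was compared with WT to see which histone genes differ in cells with the exon 2 deletion. Without a block for the replicate number, limma called 0 of the 32 genes, and 0% of all genes, after Benjamini-Hochberg adjustment. That fit counts the difference between the replicate numbers as spread within a genotype, so its 0 calls cannot show that genotypes are alike. For Hist1h4i the SE was 0.73 without the block and 0.25 with it. At an unadjusted p under 0.05 there was 1 histone gene among 1049 genes, and edgeR and DESeq2 without the block also called 0 histone genes. With the replicate block 3 of 32 were called, 2 higher and 1 lower, where 16.3% of all genes were called (8.9% higher and 7.41% lower). By limma with the block, 7 histone genes had an unadjusted p under 0.05, among 4758 of all 15287 genes tested. The histone genes have few reads, and whether their share of calls differs from the background was not tested.

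Hist3h2ba, an H2b gene outside the main cluster, was lower in KO. It had 74.7 normalized counts in WT, 26.5 in C54Y and 33.9 in KO of replicate 1, and 141.5, 70.1 and 44.5 in replicate 2. Both WT libraries lay above both KO libraries and above both C54Y libraries. The fall in KO was -1.36 ± 0.34 (log2, adjusted p = 0.0286 with the block and 0.867 without it). In C54Y the value was -1.21 ± 0.34 and was not called (adjusted p = 0.16 with the block), and KO and C54Y differed by -0.15 (adjusted p = 0.878). It no longer passed without KO replicate 2 (adjusted p = 0.07), WT replicate 1 (0.0579) or WT replicate 2 (0.0859).

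Hist1h4i had the highest mean normalized count of the 32 genes, although Hist1h2bc had more in both WT libraries (96.4 and 257.4). Hist1h4i was higher in KO. It had 88.1 (WT), 114.2 (C54Y) and 202.4 (KO) normalized counts in replicate 1 and 241.9, 245.5 and 392.0 in replicate 2. KO was the highest library of each replicate, but the genotypes overlapped across replicates, since KO of replicate 1 was below WT of replicate 2. The difference was 0.94 ± 0.25 (adjusted p = 0.0339 with the block and 1.00 without it). C54Y stood at 0.19 (adjusted p = 0.854 with the block). Its KO difference did not pass without WT replicate 1 (adjusted p = 0.262), WT replicate 2 (0.0516) or C54Y replicate 2 (0.0596).

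Hist1h3g was also higher in KO. It had 9.7 (WT), 16.3 (C54Y) and 39.1 (KO) normalized counts in replicate 1, and 15.4, 22.1 and 34.4 in replicate 2. Both KO libraries lay above all 4 others. The difference from WT was 1.44 ± 0.41 (adjusted p = 0.0436 with the block and 0.655 without it), and C54Y stood at 0.56 (adjusted p = 0.687 with the block). The call did not hold with edgeR (adjusted p = 0.0505), DESeq2 (0.146) or TMM factors (0.0518), all with the block, nor without WT replicate 1 (0.205), WT replicate 2 (0.0613), KO replicate 1 (0.169) or C54Y replicate 2 (0.0504). Of the 50-base words in its transcript, 54.05% also occur in another histone transcript, so its count can include or lose reads of other copies. For Hist1h4i and Hist3h2ba the shares were 28.9% and 22.1%.

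The promoters of these 3 genes, from 250 bases before to 50 bases after the RefSeq start, are printed because these genes were called between genotypes in the fit with the block, although such calls were no more frequent among histone genes than among all genes. They come from RefSeq on GRCm38.p6, a later build than the mm9 of the deposited data, at chr11:58948661-58948960 on the plus strand (Hist3h2ba), chr13:22041313-22041612 on the minus strand (Hist1h4i) and chr13:23535168-23535467 on the plus strand (Hist1h3g). Capitals mark letters, on either strand, that match the CCAAT box motif, the TATAAA motif or the octamer core TTTGCAT, wherever they fall. A match is not a site.
Hist3h2ba: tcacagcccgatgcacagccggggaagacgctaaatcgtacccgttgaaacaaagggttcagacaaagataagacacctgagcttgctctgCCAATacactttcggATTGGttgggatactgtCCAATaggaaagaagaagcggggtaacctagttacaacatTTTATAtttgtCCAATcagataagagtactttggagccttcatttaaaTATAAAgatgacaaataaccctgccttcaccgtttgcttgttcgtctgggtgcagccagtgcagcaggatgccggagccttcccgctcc
Hist1h4i: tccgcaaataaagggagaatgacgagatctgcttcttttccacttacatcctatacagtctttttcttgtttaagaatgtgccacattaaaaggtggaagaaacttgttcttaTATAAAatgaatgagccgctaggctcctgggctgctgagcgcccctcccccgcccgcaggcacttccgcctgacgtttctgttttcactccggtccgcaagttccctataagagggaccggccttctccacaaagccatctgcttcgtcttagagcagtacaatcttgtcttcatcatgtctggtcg
Hist1h3g: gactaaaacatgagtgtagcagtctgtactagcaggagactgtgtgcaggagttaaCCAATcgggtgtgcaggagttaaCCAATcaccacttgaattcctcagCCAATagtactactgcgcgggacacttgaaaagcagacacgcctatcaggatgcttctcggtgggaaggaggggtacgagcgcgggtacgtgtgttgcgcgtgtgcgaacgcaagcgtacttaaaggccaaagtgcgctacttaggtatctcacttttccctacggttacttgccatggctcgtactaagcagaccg
Hist3h2ba held 4 CCAAT matches and 2 TATAAA matches. Hist1h3g held 3 CCAAT matches. Hist1h4i held 1 TATAAA match, at -137, and no CCAAT. Promoters were found for 29 of the 32 genes. CCAAT occurred in 25 of the 29, against 37.9% of all 27025 promoters, and every H1, H2a, H2b and H3 promoter found had it, against 3 of the 7 of H4. TATAAA occurred in 16 of the 29 (14.2% of all promoters). TTTGCAT, read by octamer factors, occurred in 9 (4.59% of all), of which 5 were among 8 H2b and 3 among 5 H2a promoters. The motif TNNGGCA, known as the core of THAP1 sites, occurred in 15 of the 29 (40.0% of all), among them Hist3h2ba and Hist1h4i but not Hist1h3g. No motif contains another. A pair of divergent genes, Hist1h2ae and Hist1h2bg, share 279 bases of window on opposite strands, and Hist1h2ag and Hist1h2bj share 252.

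**Figure D4:**
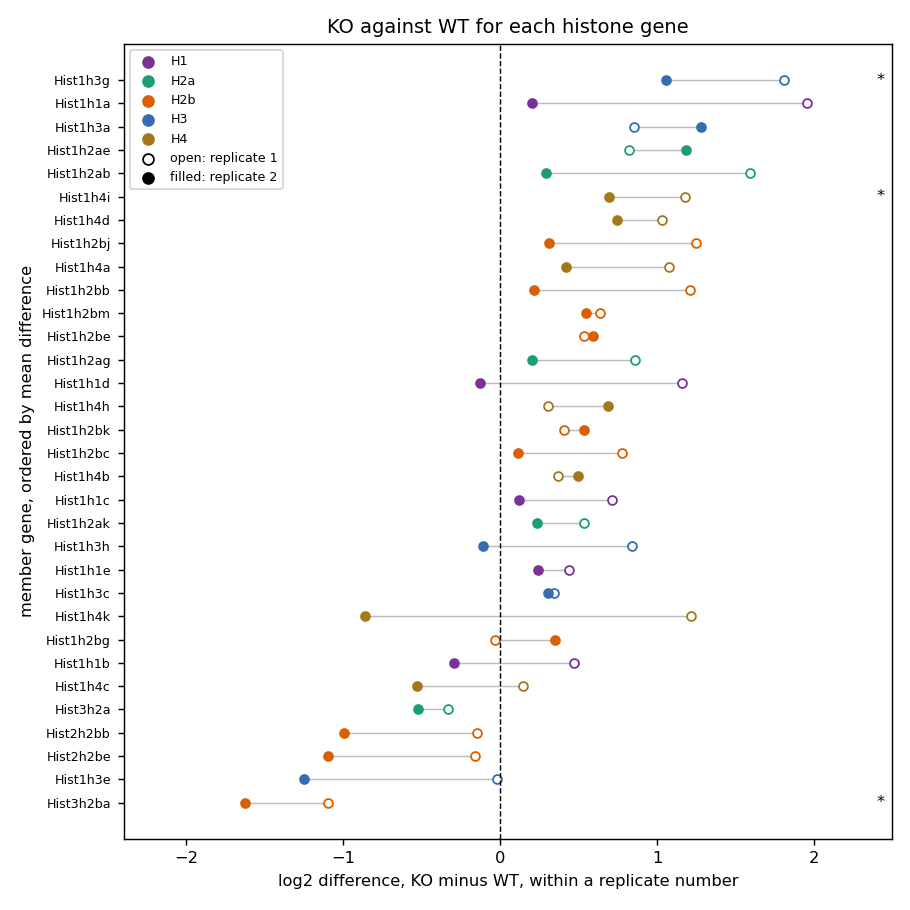
Log2 difference of KO minus WT within replicate 1 (open points) and within replicate 2 (filled points) for each of the 32 histone genes, coloured by class and ordered by the mean of both, with a line joining the points of a gene; asterisks mark an adjusted p under 0.05 in limma with the replicate block. Hist1h3g (mean 1.44) lies at the top and Hist3h2ba (mean -1.36) at the bottom.

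The other histone genes were not called in KO. Over all 32, 26 lay above 0 (52.7% of all genes tested did) and the median was 0.46, against 0.03 for all genes tested, with 0.68 within replicate 1 and 0.24 within replicate 2. On the RPM scale the medians were 0.32 and -0.11. H1 genes ran from 0.09 to 1.08, with Hist1h1a at the top (adjusted p = 0.138), and H2a genes from -0.43 (Hist3h2a) to 1.00 (Hist1h2ae, adjusted p = 0.134). H3 genes ran from -0.63 to 1.44 and H4 genes from -0.19 to 0.94. Of the 6 genes below 0, Hist3h2ba, Hist3h2a, Hist2h2be and Hist2h2bb are the 4 that lie outside the Hist1 cluster, and these were below 0 in C54Y as well, although both comparisons share the WT libraries. In the Hist1 cluster 26 of 28 lay above 0 in KO. This split by cluster was made after the values had been seen.

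The 32 genes together had an RPM of 21.9 in WT, 19.1 in C54Y and 28.9 in KO of replicate 1, and 41.8, 42.8 and 41.9 in replicate 2. KO was thus highest in replicate 1, while the genotypes were level in replicate 2 within counting error (39.8 to 44.0 for KO, 39.6 to 44.1 for WT). Normalized counts gave a ratio of KO to WT of 1.49 in replicate 1 and 1.08 in replicate 2.

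In C54Y against WT, limma called 0 of the 32 genes with or without the replicate block, where the block gave 1.36% of all genes. With the block 2 histone genes had an unadjusted p under 0.05 by limma, among 1884 of all 15287 genes tested. Both edgeR and DESeq2 called 0 histone genes too. The median was 0.05 with 18 of 32 above 0, from -1.21 (Hist3h2ba) to 1.23 (Hist1h1a). H3 was the class with the lowest median (-0.19). KO against C54Y also gave 0 histone calls with either fit and by edgeR or DESeq2, where limma with the block called 0.19% of all genes. At an unadjusted p under 0.05 by limma with the block there were 2 histone genes, among 2349 of all genes tested. The histone median of KO against C54Y was 0.39, with 0.65 in replicate 1 and -0.02 in replicate 2.

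Other gene lists were counted in KO with the block, where 8.9% of all genes were called higher and 7.41% lower. Without the block, where the replicate difference stays in the spread, 0% were, so none of the calls in this paragraph held there. Of 25 S phase genes 8 were called higher and 0 lower (median 0.39). Ung, which removes uracil from DNA, had 2920 and 7831 normalized counts in WT and 5434 and 13295 in KO (0.83 ± 0.13, adjusted p = 0.00433), higher in KO in each replicate. Mcm5, a subunit of the replicative helicase, was higher by 0.60 ± 0.11 (adjusted p = 0.00982). Of 26 processing genes 1 was called higher, the cleavage factor gene Cstf2 (0.78 ± 0.16, adjusted p = 0.0128), and 1 lower, its retrocopy Cstf2t (-0.59 ± 0.15, adjusted p = 0.0317). Npat did not pass (0.04, adjusted p = 0.911), nor did Casp8ap2 (0.65, adjusted p = 0.135). Among 18 chaperone genes the FACT subunit Ssrp1 was called lower (-0.48 ± 0.13, adjusted p = 0.0364) and 0 higher. Of 11 variant histone genes 0 were called (median 0.20). Embryonic stem cell markers had 7 of 10 called higher and 0 lower, and fibroblast markers 0 higher and 2 lower of 13 (Pdgfra at -1.83 and Mmp2 at -1.03, median -0.62). The summed normalized count of the fibroblast markers was 8879 in WT and 5391 in KO of replicate 1, and 27840 and 32361 in replicate 2. The part of feeder content in the KO values of the histone genes was not tested.

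Near-identical copies limit how far single genes can be read. Over the 32 genes a median of 40.2% of 50-base words recurred in another histone transcript. The share was over 50% in 10 genes, reached 93.9% in Hist1h3h and was 0 in 4 (Hist1h1a, Hist1h1b, Hist2h2bb and Hist2h2be). In 9 genes the annotated exons also overlap another gene, and without a stated strand setting reads of such neighbours cannot be told apart.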

How the data were processed

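RNA sequencing values of 6 libraries (3 genotypes, 2 libraries each) were analysed. The deposited table holds a signal, a normalized count, for each gene and library: per the submitters' processing notes CASAVA, Trimmomatic, TopHat2 2.1.0, HTSeq, DESeq2 and build mm9 were used. Strand setting, annotation and filters are not given in the sources used here. Values were whole multiples of 1 step per library for 100% of values (tolerance 1e-06), so whole reads were recovered. The 15287 genes whose value reached 10 in 2 or more libraries were tested by limma 3.58.1 (robust trend, R 4.3.3) on log2(value + 2), which understates changes of low genes, with Benjamini-Hochberg adjustment at 0.05 over all genes. On simulated data only the limma fits of KO against WT were checked before use. The replicate comparison, edgeR and DESeq2 were not checked in that way. The genotype fit had no block. A replicate block was the alternative, and libraries with the same number deviated together (r of 0.907, 0.869 and 0.895 for the pairs of genotypes), so the numbers pair the samples, although the labels do not say what they mark. The replicate comparison used genotype and replicate number.

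On the recovered reads, edgeR 4.0.16 called 9789 genes in the replicate comparison and, with the block, 2457 in KO against WT. DESeq2 1.42.0, TMM factors, pseudocounts of 0.5 and 10, no filter and leaving out each library were further alternatives. Members and gene lists were chosen with earlier results of these data known. Named were, per class, the 2 most counted members and the highest and lowest replicate changes; members called between genotypes; 3 members on either side of the entry threshold; up to 3 genes per list and comparison; and Thap1. Hist1h4k, Hist1h2be, Hist1h2bj and others outside this rule were named after their values were seen. Supt16h was not matched in the table by that symbol. Intervals are exact Poisson 95% intervals and cover counting error alone.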

Additional observations from a re-analysis of the deposited data

Results flagged for a closer look

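The replicate difference of 3 histone genes had opposite signs between genotypes. Hist1h3g was higher in replicate 2 by 5.73 normalized counts in WT and 5.76 in C54Y, and lower in KO (-4.72). Hist1h4k was higher by 20.3 in WT and 20.5 in C54Y, and lower in KO (-4.24). Hist2h2be was higher by 2.09 in WT and lower in C54Y (-24.1) and KO (-23.2). Class sums in RPM (reads scaled to a common library total) also changed sign between the replicate numbers. The log2 ratio of KO to WT was 0.78 in replicate 1 and -0.0659 in replicate 2 for H1, and 0.115 and -0.314 for H2b. The log2 ratio of C54Y to WT was -0.503 and 0.104 for H2a, and -0.198 and 0.0358 for all 32 genes. Each value rests on 1 library per group, and none of these differences was tested.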

How the results depend on the processing

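The count of histone genes called in KO against WT, 0 without the replicate block, was 3 with it, 3 with no filter or with a pseudocount of 10, and 2 with a pseudocount of 0.5, TMM factors, edgeR or DESeq2, each with the replicate block. The fit without the block leaves the difference between the replicate numbers in the spread within a genotype. Leaving out 1 library gave 0 to 4 with the block and 0 to 0 without it. For C54Y against WT and for KO against C54Y the count was 0 to 2 with the block and a library left out, and 0 in the other alternatives. Without the block no gene of any list was called in KO against WT, so Ung, Mcm5, Cstf2, Cstf2t, Ssrp1, Pdgfra and Mmp2 lost their calls too (adjusted p from 0.587 to 1.00). In the replicate comparison the count ran from 16 to 25 with a library left out and was 16 with DESeq2. Medians over the 32 genes with a library left out and the block ran from 0.31 to 0.83 (KO against WT), -0.17 to 0.27 (C54Y against WT) and 0.10 to 0.66 (KO against C54Y), and from 1.15 to 1.48 between the replicates.

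Log2 ratios of class sums moved in these cases. Replicate 2 against replicate 1 with normalized counts gave 0.83 (H2a), 1.13 (H2b), 1.23 (H3), 1.29 (H4) and 1.26 (all). Without the most counted gene of the class the same ratio was 1.06 for H2a and 1.18 for H4. Without that gene, KO against WT was 0.76 for H2a and -0.41 for H2b, and C54Y against WT was 0.56 for H1, 0.23 for H2a and -0.094 for H3. With normalized counts KO against WT was -0.0097 for H2a. The cause was not tested.

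No named gene changed sign in the replicate comparison. In KO against WT 13 values changed sign with a library left out, none of them called: without WT replicate 1 and without the block, Hist1h1a (-0.56), Hist1h1c (-0.25), Hist1h2bc (-0.25), Hist1h3c (-0.27), Hist1h3h (-0.64) and Hist1h4h (-0.32); without KO replicate 2, Hist1h3c (-0.25), Hist1h3h (-0.16) and Hist1h4h (-0.51); without KO replicate 1 and with the block, Hist1h1c (-0.19) and Hist1h3h (-0.056); and Hist2h2bb without KO replicate 1 (0.33) or WT replicate 2 (0.75). Without the block and a library left out, the ranges of these genes ended at 2.72 (Hist1h1a), 1.08 (Hist1h1c), 1.15 (Hist1h2bc), 0.92 (Hist1h3c), 1.37 (Hist1h3h) and 1.51 (Hist1h4h), and at -1.89 for Hist2h2bb. Genes with fewer than about 10 reads in a library are imprecise at this depth.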
